A study of Homo sapiens with 9 samples.

Results

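DNA:RNA hybrid maps made after RNase H digestion were set against undigested maps of the same SH-SY5Y cells, in which a hairpin (shTDP43) knocks down TDP-43. It used 4 of the 9 libraries of the series: 1 RNase H-treated library and 3 untreated libraries, all chosen by their labels. SH-SY5Y is an established human neuroblastoma line. All cells of the comparison carried the pLVX-U6-shRNA1 lentivirus with the hairpin against TDP-43 and had passed 2 weeks of puromycin (2 µg/mL, then 1 µg/mL for upkeep). The hairpin was driven by the U6 promoter, and the cells are described as stably transduced, not as a clone. The assay was DRIP-seq: after digestion with BsrGI, EcoRI, HindIII, SspI and XbaI, 6 µg of nucleic acid was pulled down with S9.6, an antibody against DNA:RNA hybrids. The treated aliquot received RNase H for 6 h before the pull-down. Libraries of the control hairpin (shNC, 3 untreated and 1 treated) are given beside some results, and 1 input library was not analysed here. Whether the 3 untreated libraries stem from separate cultures is not given in the labels, so their spread may be technical. The genes compared were 19817 protein-coding RefSeq genes of the autosomes and X. Each gene was given a covered length, the number of bases under called peaks within its span and 1 kb of flank at either end. With 1 treated library, all differences below are values without a test, and the treated side has no replicate check.

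An R-loop forms when nascent RNA pairs with its template DNA strand and leaves the other DNA strand single. Such hybrids are common at CpG-island gene starts, at gene ends and over strongly transcribed, G-rich genes. RNase H cuts the RNA of a DNA:RNA hybrid, so a treated pull-down serves as the specificity control of DRIP: signal that needs the hybrid should go, and whatever the antibody or the beads bring down otherwise stays. S9.6 is also known to bind double-stranded RNA. TDP-43, the product of TARDBP, binds RNA and single-stranded DNA and is lost from the nucleus in most amyotrophic lateral sclerosis. In bulk material, fewer cells with a hybrid at a locus and fewer hybrids per cell cannot be told apart.

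The treated list held 8868 peaks over 5.66 Mb on the chromosomes used, and the untreated lists 57204 to 70016 peaks over 91.6 to 130.9 Mb. Treated peaks were also narrower, with a median width of 437 bp against 650 to 728 bp. The lowest background pileup over sampled summits, a rough relative measure of depth read from the lists, was 0.991 in the treated library. It was 1.05, 1.68 and 1.94 in untreated replicates 1 to 3. By this measure depth differed by little between the treated library and replicate 1, and by more for replicates 2 and 3. Read counts were not available, and the control library behind the background is not named. Marker genes of the labelled cell type were checked by their untreated coverage, which is not a transcript level. Of 12 sympathoadrenal marker genes, 10 were covered in all 3 libraries, while TH and INSM1 were at 0. Their summed covered length was 132 to 144 kb untreated and 15.5 kb treated. Of 9 mesenchymal markers 4 were covered, with 34.4 to 43.3 kb in sum. None of 6 leukocyte, epithelial and endothelial markers was covered in all 3, and PTPRC, CD3E, KRT8, KRT18 and PECAM1 were at 0. Wilson intervals below are at the 95% level and cover counting error only. The treated shNC list, set beside some results below, was larger than that of shTDP43, with 15504 peaks over 10.5 Mb.

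Most genes lost every called peak. Of 12099 genes covered in all 3 untreated libraries, 9281 (76.7%) had 0 bp under treated peaks and 2818 (23.3%) carried a treated peak. In 2107 genes (17.4%) a treated peak overlapped an untreated one, and in the other 711 (5.88%) the treated peaks lay elsewhere in the gene. The treated covered length was below every untreated library in 11868 genes and above every untreated library in 56 (0.463%). It was at least 2-fold shorter than the untreated mean in 11825 genes (97.7%). Of 6231 genes without a peak in any untreated library, 379 (6.08%) carried a treated peak. That count was 629 against untreated replicate 1 alone, 1351 with the untreated lists limited to the length of the treated list and 220 with peaks of −log10 q of at least 10 in every list. Likewise, 1856 genes kept a peak under equal list lengths, 1061 at a −log10 q of at least 5 and 373 at 10, and 5032 genes lost all peaks under equal list lengths. These background shares are what the gene groups below are read against.

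The 10 genes that lost the longest coverage had spans of 126.0 to 468.0 kb. CACNA2D2 on chromosome 3 (50362613 to 50504244, GRCh38), an auxiliary subunit of voltage-gated calcium channels, had 71.1, 96.1 and 112.6 kb under peaks in untreated replicates 1 to 3 and 0 kb after RNase H. PTPRS on chromosome 19 (5205508 to 5340812), a receptor tyrosine phosphatase of axons, had 77.3, 99.2 and 101 kb untreated and 0 kb treated. The histone demethylase gene KDM4B, its neighbour on chromosome 19 (4969113 to 5153598), had 56.6, 98.3 and 103.5 kb and then 0 kb. In each of these genes replicate 1 was the lowest untreated library. The treated library lay far outside the untreated spread, which the choice of genes by 0 kb treated and a large untreated mean fixes. BCOR, a transcriptional corepressor on the X chromosome, went from a mean of 83.5 ± 12.1 kb (SD, n = 3) to 0. PHF21B, a PHD finger gene, went from 83.0 ± 13.2 kb, and the chromatin regulator gene ANKRD11 from 81.8 ± 16.3 kb, both to 0 kb. SH3PXD2A, a scaffold of podosomes, PRRC2B, an RNA-binding protein, SSBP3, a single-stranded DNA-binding protein, and the homeobox gene CUX1 had untreated means of 75.2 to 78.5 kb and no treated peak. In the treated shNC library, KDM4B and BCOR were at 0 as well, and the other 8 carried 0.77 to 5.35 kb. Across all 9281 genes of this kind, 2056 (22.2%) had a peak in the treated shNC list. This share was 27.3% over all 19817 genes and 84.2% over the covered genes with a treated shTDP43 peak.

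TARDBP itself (chromosome 1, 11012654 to 11030528) had 6.82, 9.87 and 10.2 kb untreated and 0.271 kb treated, in 1 peak that overlapped an untreated one. It had no treated peak in shNC. Hybrid coverage measures neither transcript nor protein and so does not check the knockdown.

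The 10 genes with the longest treated coverage held 10.4 to 20.4 kb. LSP1, an actin-binding protein gene on chromosome 11 (1853084 to 1892263), had 17.3, 26.6 and 22.7 kb untreated and 20.4 kb treated. It is the one gene of this group whose treated length lay within the untreated range. ADGRB1, an adhesion receptor of neurons and glia, had 56.0, 79.6 and 76.5 kb untreated and 18.7 kb treated, in 9 treated peaks. GPSM1 on chromosome 9 (136327539 to 136359601), a modulator of G-protein signalling, had 33.7 kb in each untreated library and 14.5 kb treated. FSCN1 on chromosome 7 (5592816 to 5606655), the actin bundler fascin, lay under peaks over its whole 15.8 kb window in every untreated library and over 12.1 kb after treatment. DBN1, the drebrin gene of dendritic spines, kept 11.3 of 19.03 kb, and THBS3, a thrombospondin, 10.4 of 15.6 kb, both from fully covered windows. Where a window is fully covered, an untreated gene cannot score higher, so differences in its signal are not seen in covered length. GALNS, a lysosomal sulfatase, TTYH3, a chloride channel family member, MED16, a Mediator subunit, and MUC6, a mucin, kept 10.5 to 11.7 kb from untreated means of 23.4 to 35.04 kb. In all 10 genes the treated shNC library held a longer treated length, 12.8 to 21.9 kb, and for LSP1 the gap was the smallest, at 20.6 against 20.4 kb. The treated shNC list was also longer as a whole, at 10.5 Mb against 5.66 Mb, so this is not particular to these genes.

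Ranked by the percent of covered length kept, with an untreated mean of at least 5 kb, the 10 leading genes kept 71.3% to 91.8%. The percent kept, here and below, is the treated covered length over the untreated mean. It also counts treated bases that lie outside untreated peaks. LSP1 kept 91.8%. EGR1 on chromosome 5 (138465479 to 138469303), an immediate early transcription factor gene, had 5.83 kb in each untreated library, its full window, and 5.32 kb treated (91.3%). FKBP2, a peptidyl-prolyl isomerase of the endoplasmic reticulum, kept 4.40 of 5.04 kb (87.3%). The readthrough locus PPAN-P2RY11 kept 9.08 of 11.01 kb (82.5%) and FSCN1 76.6%. CCDC9B kept 7.68 of 10.4 kb (73.9%), in a single treated peak that the treated shNC library covered over 7.68 kb as well. FOS, the partner of JUN in AP-1, kept 3.93 of 5.40 kb (72.7%). RSPH6A, a radial spoke gene of cilia, CDT1, a replication licensing factor, and MAP2K7, a kinase of the JNK pathway, kept 71.3% to 72.2%. Of the 4.58 kb treated length of RSPH6A, 3.90 kb lay under untreated peaks. These 10 genes are extremes: over the 2818 genes with a treated peak the median was 8.49%, with quartiles of 3.70% and 20.8%. The median was 7.45% in the 2107 genes with a treated peak over an untreated one. In the 711 genes with treated peaks elsewhere only it was 12.4%, none of it under untreated peaks.

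Genes with a treated peak and no untreated one carried short lengths inside long spans. SEMA3A on chromosome 7 (83955777 to 84492725), a secreted axon-guidance cue, had 0 kb in all 3 untreated libraries and 3.63 kb after RNase H, in 4 peaks. CSMD1, a gene with complement-control domains, had 0 kb untreated and 3.52 kb in 5 treated peaks. PRR5L, an mTORC2-binding protein, had 3.08 kb in a single treated peak. The treated shNC library held about the same lengths at these loci, 4.188, 4.299 and 3.097 kb. LRRC7, a postsynaptic scaffold, EGF, the epidermal growth factor gene, ASIC2, an acid-sensing ion channel, and CIBAR2 had 2.65 to 3.03 kb treated. SLC39A11, a zinc transporter, L1TD1, an RNA-binding protein derived from a LINE-1 element, and CD38, an enzyme that consumes NAD, had 2.27 to 2.41 kb. Over the 379 genes the median treated length was 0.497 kb, 287 (75.7%) had a peak in the treated shNC list and 74 (19.5%) had one in any untreated shNC list. Over all genes these shares were 27.3% and 70.0%. Over genes with no peak in any shTDP43 list they were 5.21% and 7.16%.

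**Figure D1:**
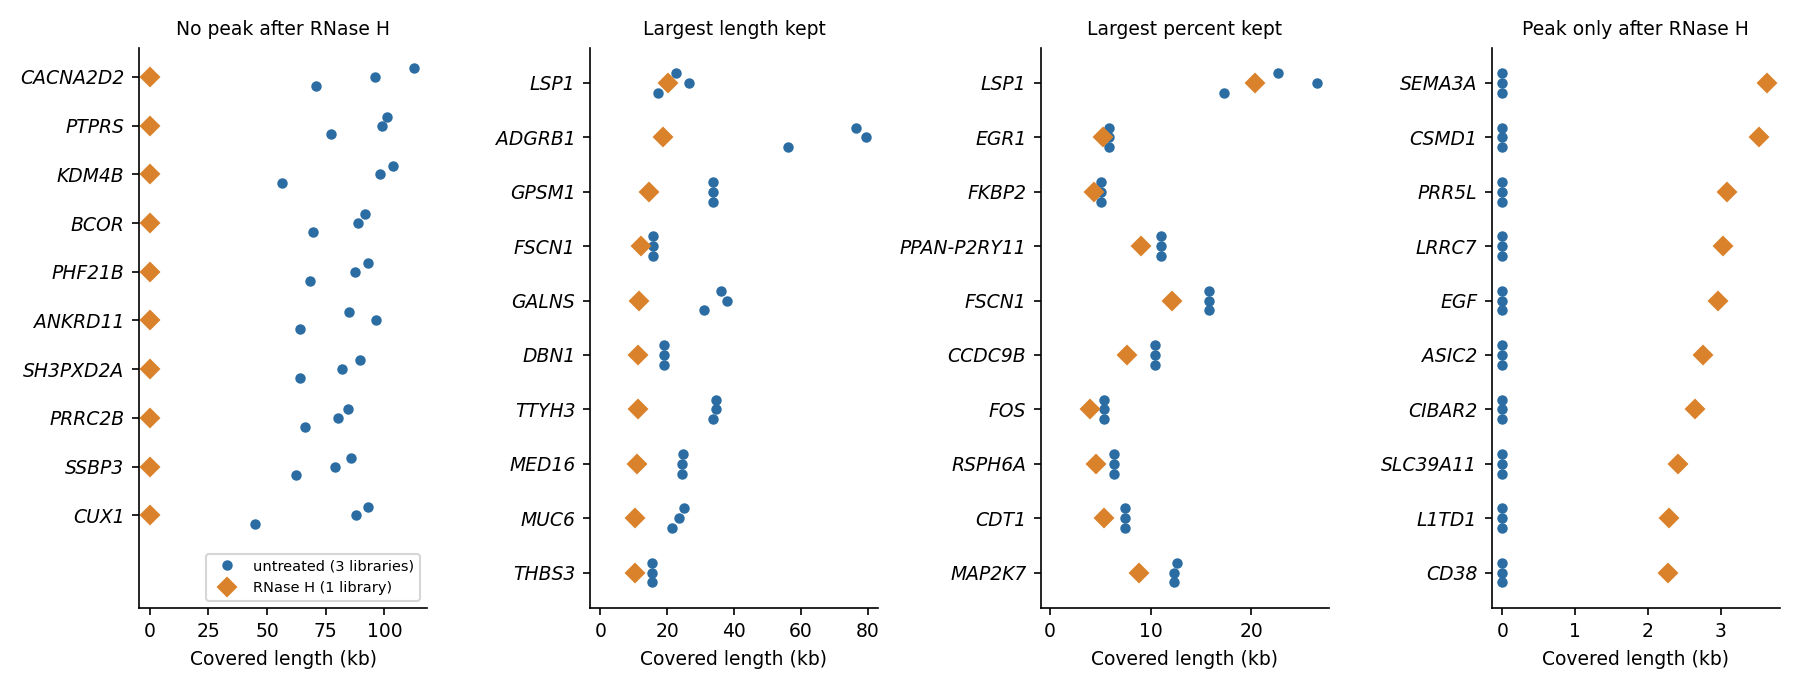
Covered length (kb, x axis) of the 10 named genes of each kind (y axis), with the 3 untreated libraries as circles and the RNase H-treated library as a diamond. In the first panel every diamond is at 0 while the circles run from 45.0 to 112.6 kb, and in the last panel every circle is at 0 while the diamonds run from 2.27 to 3.63 kb.

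The kind of outcome went with gene span. Of covered genes under 10 kb, 16.7% carried a treated peak, and of those over 500 kb, 85.3% did (151 of 177). For peaks that overlapped an untreated peak the share was 16.4% in the shortest genes and 50.8% in the longest, while peaks elsewhere in the gene went from 0.295% to 34.5%. Among genes without untreated peaks, 0.976% of those under 10 kb and 65.7% of those over 500 kb carried a treated one. Per Mb of span, treated peaks that overlapped no untreated peak went from 0.994 in the shortest genes to 1.73 in the longest. Treated peaks that overlapped an untreated one went the other way, from 17.3 to 0.703 per Mb. Untreated coverage per span was also highest in short genes and went from 51.1 kb per 100 kb of span in genes under 10 kb to 0.874 kb in genes over 500 kb. Short genes thus left less room for treated peaks without untreated overlap. Gene span itself, which sets how much sequence can hold a peak, was not separated from other properties of long genes.

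**Figure D2:**
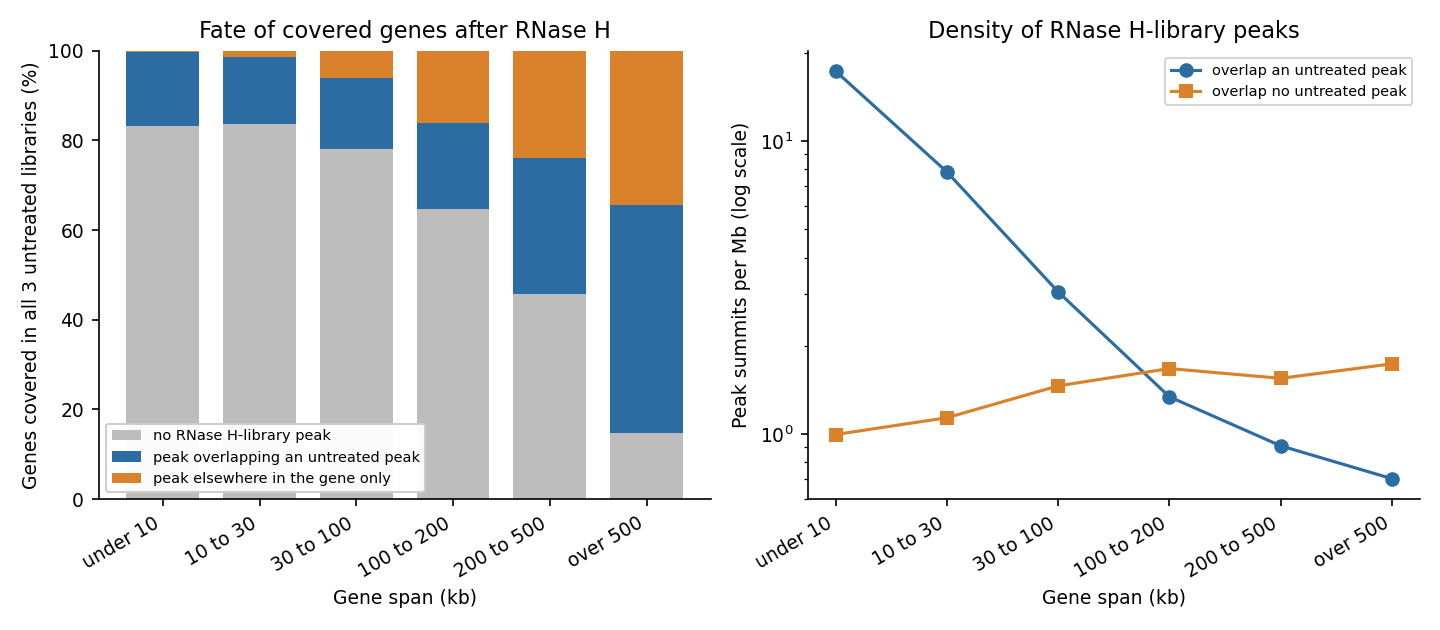
Left, percent of genes covered in all 3 untreated libraries (y axis) by gene span (x axis, kb), split into genes with no treated peak, with a treated peak over an untreated one, and with treated peaks elsewhere only. Right, treated peak summits per Mb of gene span (log scale), where summits over untreated peaks go from 17.3 to 0.703 and the others stay between 0.994 and 1.73.

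Outcome also went with untreated coverage. Covered genes were ranked by untreated mean and cut into 10 classes of equal size. In the lowest class (up to 1.64 kb) 9.09% kept a peak over an untreated one, and in the highest (19.8 to 235 kb) 41.8% did. The treated length of genes that had any varied little across the classes, with medians of 0.505 to 0.751 kb. Among genes with any treated peak, the median percent kept therefore ran from 82.1% in the lowest class to 2.25% in the highest. In the lowest class 18.0% of genes had a treated peak, so most genes there kept nothing. The untreated mean both ranks the genes and divides this percent, so a fall across the classes is partly built in.

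Loci often used as controls in DRIP assays gave both outcomes. All 15 were found in the annotation and 14 were covered in all 3 untreated libraries, BCL6, a usual negative locus, being at 0 kb in all 4 libraries. Of the 14, 5 lost every peak (35.7%, against 76.7% of all covered genes) and 9 kept one over an untreated peak. CALM3, a calmodulin gene used as a positive locus, had 9.24, 11.4 and 11.4 kb untreated and 0 kb treated. TRIM33, ZNF554, SNRPN and APOE likewise had untreated means of 3.06 to 8.42 kb and no treated peak. The genes that kept a peak include the positive loci RPL13A, a ribosomal protein gene, and TFPT. RPL13A had 6.70 kb in each untreated library and 1.69 kb treated, and TFPT 10.6 kb and 5.22 kb. ACTB, which encodes beta-actin, kept 3.78 of 5.45 kb (69.2%). MYADM and CCND1 kept 19.2% and 26.9%, the linker histone gene H1-4 27.3% and BTBD19 8.94%. FOS and EGR1 are given above. Over the list, 27.4% of the untreated length was kept, against 2.74% over all covered genes.

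Gene lists differed widely in how many members kept a peak over an untreated one. Of 18 covered genes of adrenergic neuroblastoma identity, 13 did so (72.2%, against 17.4% of all covered genes). PHOX2A, a master regulator of noradrenergic neurons, had 7.10 kb in each untreated library and 4.101 kb treated, and GATA2, a factor of the same circuit, 15.8 and 3.21 kb. DDC, which makes dopamine from L-DOPA, had 17.2, 24.6 and 26.3 kb untreated and 0 kb treated. The covered adrenergic genes had a median untreated length of 10.5 kb against 5.79 kb for all covered genes, and the part of that difference in the count was not tested. None of 6 covered mesenchymal identity genes kept a peak, where 76.7% of all covered genes kept none. Of the 6, FOSL2, an AP-1 factor, went from a mean of 16.3 kb to 0. YAP1, the Hippo pathway coactivator, was covered in 2 untreated libraries with 0.599 and 0.694 kb and had 1.14 kb treated. Of 15 immediate early genes, which are switched on within minutes of a stimulus, 8 kept a peak (53.3%, against 17.4%). Of their summed length 15.8% remained, against 2.74% over all covered genes. EGR1 and FOS held the longest treated lengths, while ATF3 went from 11.5 kb to 0.

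Genes with known TDP-43 cryptic exons kept a peak over an untreated one in 9 of 24 cases and lost all in 9 (37.5% each). Over all covered genes these shares were 17.4% and 76.7%. The covered genes of this list had a median untreated length of 16.4 kb against 5.79 kb for all covered genes. The part of that difference in the counts was not tested. ELAVL3, a neuronal RNA-binding protein, had 27.7, 29.3 and 29.0 kb untreated and 2.77 kb treated, and ACTL6B, a neuronal BAF subunit, a mean of 12.4 and then 1.84 kb. ATG4B, an autophagy protease, had 17.3, 25.0 and 23.8 kb and then 0 kb. Of the summed length of this list 2.58% remained, near the 2.74% of all covered genes. Of 23 covered genes mutated or implicated in amyotrophic lateral sclerosis, 16 (69.6%) lost all peaks, among them VCP, an unfolding ATPase, from a mean of 15.5 kb. ATXN2, which encodes an RNA-binding protein, kept 1.02 of 24.2 kb. Of 27 covered genes of R-loop resolution, 20 (74.1%) lost all peaks. THOC5, of the mRNA export complex, went from a mean of 37.4 kb to 0, while SRSF1, a splicing factor, kept 2.61 of 15.1 kb and the helicase gene DDX5 1.53 of 9.32 kb. The last 2 lists were close to the background of 76.7%.

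Of 14 covered genes of cytosine methylation and its removal, 9 lost all peaks (64.3%, against 76.7% of all covered genes). DNMT1, the maintenance methyltransferase, went from a mean of 37.2 kb to 0, DNMT3A kept 1.58 of 84.6 kb and TET3 0.776 of 45.9 kb. The list kept 1.13% of its length. Of 82 covered ribosomal protein genes, 26 kept a peak over an untreated one (31.7%, against 17.4% of all covered genes). RPS2 kept 2.33 of 4.77 kb, while RPS24 went from 11.6 kb to 0. Of 55 covered replication-dependent histone genes, 8 kept a peak (14.5%, near the 17.4% of all covered genes). H2BC12 and H2BC21 kept 0.757 and 0.562 kb and H2BC5 went from 9.66 kb to 0. Zinc finger genes on chromosome 19 kept a peak over an untreated one in 15 of 211 cases (7.11%, against 17.4%). This was the lowest share of the lists with at least 20 covered genes. ZNF91, a repressor of SVA retroelements, kept 2.25 of 18.9 kb, ZNF581 2.12 of 12.6 kb, and ZNF254 went from 30.5 kb to 0. Of 21 covered DNA damage response genes, 14 lost all peaks (66.7%, against 76.7% of all covered genes). The kinase gene PRKDC went from 38.4 kb to 0, whereas XRCC5, the larger Ku subunit, kept 1.55 of 20.4 kb and ATR 0.628 of 3.35 kb.

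Of 17 covered synapse genes 9 lost all peaks (52.9%, against 76.7% of all covered genes), NRXN2 from a mean of 48.3 kb. SHANK2, a postsynaptic scaffold, had 17.1, 30.3 and 35.7 kb untreated and 4.15 kb treated, in 5 peaks without and 1 with an untreated counterpart. NRXN3, a presynaptic adhesion gene, had 0.289, 0 and 0.289 kb in the untreated libraries and 4.85 kb treated. CTNNA2, an alpha-catenin of neurons, had 2.65, 3.42 and 5.77 kb untreated and 6.45 kb treated, above every untreated library. HDAC9, a histone deacetylase, had 10.7, 15.8 and 23.003 kb untreated and 6.20 kb treated, in 8 treated-only peaks and 2 shared ones. Of 835 covered genes over 200 kb, 218 carried treated peaks only elsewhere than under untreated ones, where 5.88% of all covered genes did. Of 363 genes over 200 kb without untreated peaks, 137 carried a treated one, against 6.08% over all spans. All 10 covered HOX genes lost their peaks, as did 76.7% of all covered genes. HOXD3 had 21.0, 21.3 and 21.6 kb untreated. Of 27 HOX genes without untreated peaks 4 carried a treated one, where 6.08% of all such genes did. Among them were HOXA3 with 2.19 kb and HOXA6 with 1.89 kb, at 2.52 and 1.93 kb in the treated shNC library. The HOXA6 window lies inside that of HOXA3, so its length is part of that of HOXA3 and the genes counted are not independent.

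Along the gene, untreated coverage was highest at both ends and the treated remainder was flatter. In 7791 covered genes of at least 10 kb with a known strand, the 1 kb upstream of the start lay under peaks over 51.3% ± 6.80 (SD, n = 3) of its length untreated and 0.631% treated, so 1.23% was kept. With the span cut into 10 equal segments, the percent kept in segments 2 to 9 was 2.50% to 3.56%. In genes whose treated peaks lay elsewhere, the choice of genes with no treated peak over an untreated one fixes a low treated value wherever untreated peaks are common, so their values are a description: upstream of the start 45.9% ± 7.99 was covered untreated and 0.192% treated, and in segment 5 1.69% ± 0.527 and 0.376%. In genes with a treated peak over an untreated one, the flanks held 3.53% upstream and 3.88% downstream after RNase H. The 10 segments of the span held 0.605% to 1.12%. Untreated, the same flanks held 54.6% and 47.8%, and the segments 8.41% to 20.9%. The percent kept was 6.46% and 8.13% in the flanks, within the 5.37% to 8.82% of the segments. Within 1 kb of either side of a start, 7416 genes were covered in all 3 untreated libraries, and 329 of these starts (4.44%, interval 3.99 to 4.93) met a treated peak. Among genes that kept a peak over an untreated one, 325 of 1291 covered starts (25.2%) did, a count to which the choice of these genes contributes.

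**Figure D3:**
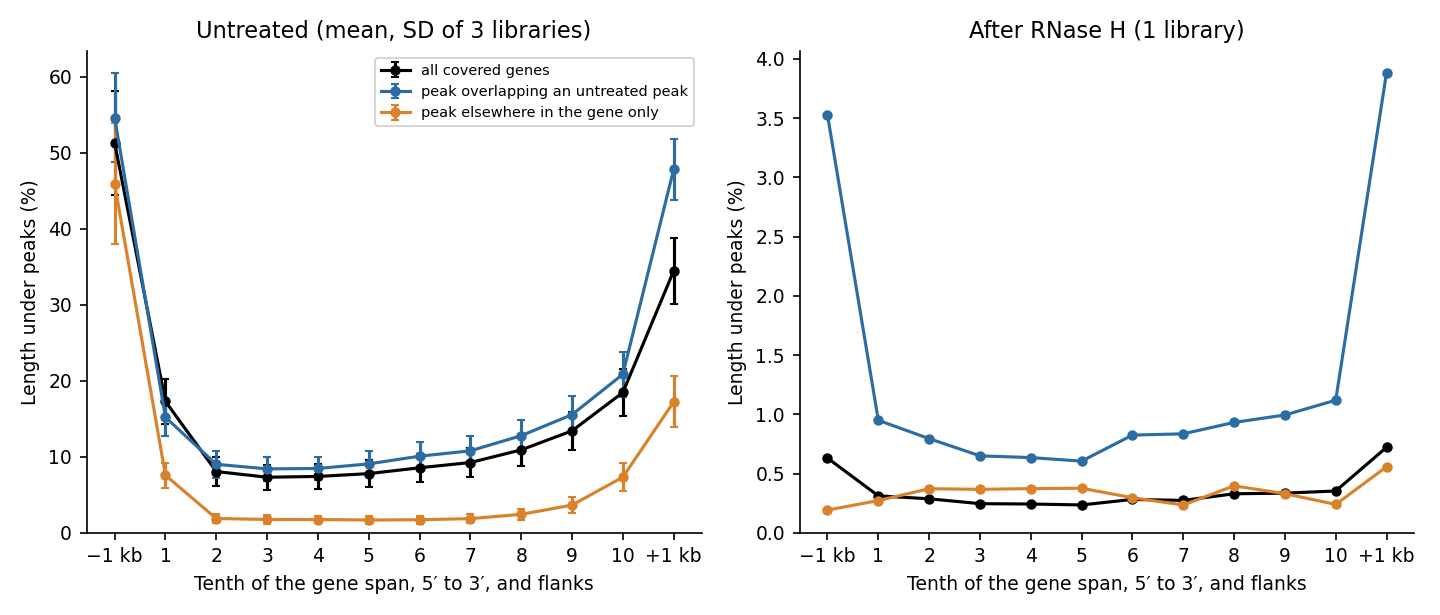
Percent of length under peaks (y axis) in the 1 kb upstream, the 10 equal parts of the gene span from start to end, and the 1 kb downstream (x axis), for genes of at least 10 kb with a known strand. Left, untreated mean with SD over 3 libraries, high at both ends; right, the treated library on its own, smaller scale, where genes with treated peaks elsewhere have 0.192% upstream of the start, a low value that the choice of these genes fixes.

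The start sequences are shown for genes on which these outcomes turn, as the 250 bases upstream of the annotated start on the gene's strand, from RefSeq (GRCh38.p14), with CG dinucleotides in capitals since CpG-rich starts are where R-loops are common. EGR1 (chr5:138465229-138465478, plus strand), FOS (chr14:75278578-75278827, plus) and SRSF1 (chr17:58007247-58007496, minus) kept a peak over all 250 bases. PTPRS (chr19:5340813-5341062, minus) and KDM4B (chr19:4968863-4969112, plus) were covered over all 250 bases in every untreated library and over 0 bases after RNase H. L1TD1 (chr1:62194599-62194848, plus) was covered over 0 bases in every untreated library and over all 250 after treatment.
EGR1: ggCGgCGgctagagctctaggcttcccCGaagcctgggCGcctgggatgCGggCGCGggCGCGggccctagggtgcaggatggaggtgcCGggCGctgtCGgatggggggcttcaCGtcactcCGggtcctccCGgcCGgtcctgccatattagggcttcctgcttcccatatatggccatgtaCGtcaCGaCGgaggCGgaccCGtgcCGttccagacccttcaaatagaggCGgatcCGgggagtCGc
FOS: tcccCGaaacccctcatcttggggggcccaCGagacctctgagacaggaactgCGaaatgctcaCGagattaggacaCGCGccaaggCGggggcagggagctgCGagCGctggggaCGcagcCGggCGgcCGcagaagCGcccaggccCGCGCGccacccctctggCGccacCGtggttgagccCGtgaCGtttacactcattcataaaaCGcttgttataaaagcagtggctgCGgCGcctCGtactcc
SRSF1: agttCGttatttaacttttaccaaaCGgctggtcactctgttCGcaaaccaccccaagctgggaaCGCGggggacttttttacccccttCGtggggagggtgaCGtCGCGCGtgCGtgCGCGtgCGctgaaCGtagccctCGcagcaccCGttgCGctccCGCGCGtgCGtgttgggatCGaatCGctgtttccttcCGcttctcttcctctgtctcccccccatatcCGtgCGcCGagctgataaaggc
PTPRS: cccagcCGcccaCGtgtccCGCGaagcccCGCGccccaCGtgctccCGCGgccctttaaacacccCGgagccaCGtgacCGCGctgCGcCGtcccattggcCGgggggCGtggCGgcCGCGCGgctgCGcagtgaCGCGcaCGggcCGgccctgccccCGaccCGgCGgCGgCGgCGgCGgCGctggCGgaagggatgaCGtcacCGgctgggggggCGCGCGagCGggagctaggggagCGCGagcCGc
KDM4B: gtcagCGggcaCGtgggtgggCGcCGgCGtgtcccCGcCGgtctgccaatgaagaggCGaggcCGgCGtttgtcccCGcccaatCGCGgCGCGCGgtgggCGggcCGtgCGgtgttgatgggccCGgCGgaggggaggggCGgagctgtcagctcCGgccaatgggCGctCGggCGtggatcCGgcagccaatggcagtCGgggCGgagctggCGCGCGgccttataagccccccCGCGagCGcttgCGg
L1TD1: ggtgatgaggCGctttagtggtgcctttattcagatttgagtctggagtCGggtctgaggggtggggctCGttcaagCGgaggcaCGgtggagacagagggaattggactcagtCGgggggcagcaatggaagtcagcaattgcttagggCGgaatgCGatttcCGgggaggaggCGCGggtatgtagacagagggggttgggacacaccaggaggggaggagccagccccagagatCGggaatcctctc
The 3 starts that stayed covered held 25 to 28 CG dinucleotides, the 2 that lost their peaks 36 and 44, and that of L1TD1 12. Other named genes did not follow this split. Of starts that stayed covered over all 250 bases, TFPT held 16 and FKBP2 32. Of starts that went from 250 bases to 0, APOE held 5 and DNMT1 21. CG, which reads the same on both strands, occurred in 97.0% of all 13791 start sequences of this length, with a median of 17 per sequence. Over windows of 300 bases (250 upstream and 50 downstream), 127 of 5432 covered in all 3 untreated libraries met a treated peak (2.34%, interval 1.97 to 2.77). Base composition hardly separated them: the median GC content was 66.7% in the 127 and in the other 5305, and the median CG count upstream was 22 and 23. The genes of the 127 were shorter, with a median span of 6.85 kb against 25.1 kb. A run of GGGG or CCCC, on either strand, occurred in 99.2% and 97.7%, and in 93.7% of all windows. A site of any of the 5 enzymes (TGTACA for BsrGI, GAATTC for EcoRI, AAGCTT for HindIII, AATATT for SspI and TCTAGA for XbaI, each the same on both strands) occurred in 13.4% and 10.7%, and in 17.5% of all windows. Only 8 windows without an untreated peak met a treated one, with a median GC content of 52.8%.

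Seen from the untreated peaks, both wide and narrow but strong peaks were found again after RNase H. Over all widths the treated list overlapped 4.00% ± 0.25 of untreated peaks (SD, n = 3 libraries). The share was 2.27% ± 0.18 for peaks up to 400 bp, 3.41% ± 0.42 for those of 2 to 5 kb, 10.8% ± 2.69 for 5 to 10 kb and 36.7% ± 5.68 over 10 kb. By the fold enrichment over background in the authors' lists, it went from 2.17% ± 0.13 under 4-fold to 58.5% ± 12.9 over 40-fold. Within a class of fold, the share was lowest for middle widths. At 12- to 20-fold, 27.6% ± 4.47 of peaks up to 1 kb were overlapped, 4.099% ± 0.35 of those of 1 to 5 kb, 9.41% ± 2.26 at 5 to 10 kb and 18.2% ± 3.48 over 10 kb. At 20- to 40-fold the shares were 47.0% ± 10.7, 7.68% ± 3.07, 16.9% ± 5.32 and 31.8% ± 8.53. In every one of the 3 libraries the narrow class was above the 1 to 5 kb class, although it held only 60 to 117 and 17 to 34 peaks per library in these 2 classes of fold.

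**Figure D4:**
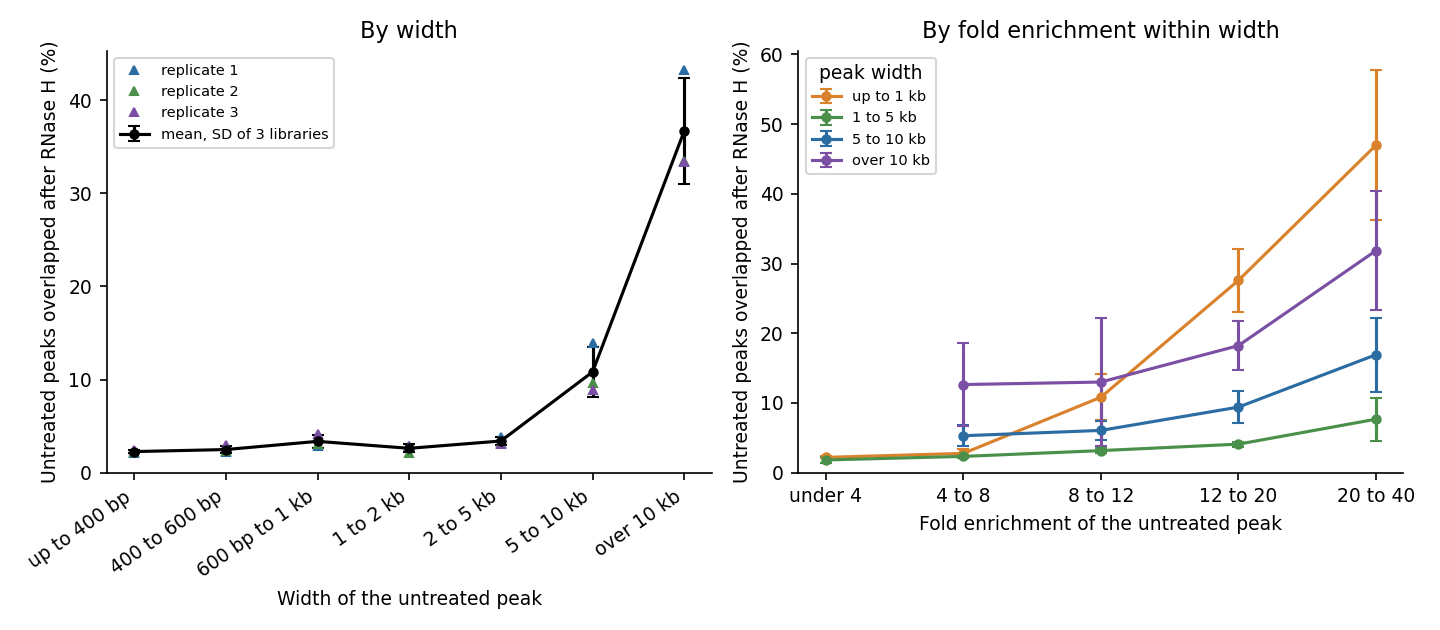
Percent of untreated peaks overlapped by a treated peak (y axis), by width of the untreated peak (left, triangles for the 3 replicates) and by fold enrichment within 4 width classes (right). Points and bars are the mean and SD of 3 untreated libraries, and classes with fewer than 10 peaks in a library are left out; at 12- to 20-fold the narrowest peaks (27.6%) lie above those of 1 to 5 kb (4.099%).

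Narrow strong peaks, up to 1 kb wide and at least 12-fold enriched, differed in place from the rest. On average 124 ± 40.9 were called per untreated library, and 57.8% ± 1.13 touched a coding gene or its flanks against 87.1% ± 0.22 of all peaks. Of them 22.4% ± 1.34 touched no annotated gene at all, against 8.27% ± 0.09 of all peaks. Peaks of 1 to 5 kb and equal fold lay within 1 kb of a gene start in 53.6% ± 1.22 of cases, and the narrow ones in 13.6% ± 2.15. The treated shNC list overlapped 36.0% ± 5.35 of the narrow strong peaks and 13.9% ± 3.28 of the wider ones, the same order as in shTDP43. The classes of width and fold were chosen after the values were seen.

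Merged over libraries, 46252 regions had a peak in at least 2 untreated libraries and 2406 of them met a treated peak (5.20%, interval 5.00 to 5.41). The share was 3.36% for regions up to 400 bp, 2.80% at 2 to 5 kb, 22.3% at 10 to 20 kb and 82.6% (19 of 23) over 50 kb. Among overlapped regions, the part that stayed under peaks was smaller in wider ones. Overlapped regions up to 1 kb stayed covered over a median of 100% of their length, those of 2 to 5 kb over 15.6% and those over 50 kb over 2.91%. The choice of overlapped regions partly fixes this fall, since a treated peak of a given width fills more of a narrow region. With regions that met no treated peak included, the treated share of length did not fall steadily. It was 3.14% up to 400 bp, 0.838% at 2 to 5 kb, 2.00% at 10 to 20 kb and 4.90% over 50 kb. Overlapped regions had a median width of 3.51 kb and the others 1.58 kb, a ratio of 2.22. That order reversed among strong peaks: with only peaks of −log10 q of at least 5 in every list the ratio was 0.935, and at 10 it was 0.422. The cause was not tested. Most treated summits lay away from untreated ones. Of 3001 treated peaks over peaks of all 3 libraries, 24.4% ± 0.37 (SD, n = 3 libraries) had an untreated summit within 200 bp, and the median distance was 1528 ± 173 bp.

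Seen from the treated list, 4510 of 8868 peaks (50.9%, interval 49.8 to 51.9) overlapped no untreated peak, 801 overlapped those of 1 library, 556 of 2 and 3001 (33.8%) of all 3. Treated-only peaks had a median width of 403 bp and a median fold of 5.02, and peaks over all 3 libraries 467 bp and 5.02. Wide peaks set them apart: 6.03% of the latter and 0.820% of the former were over 2 kb. They also differed in place, which the split by overlap with untreated peaks partly fixes. Of treated-only peaks 44.1% touched a coding gene or its flanks, 41.7% touched no annotated gene and 0.732% lay within 1 kb of a gene start. Of peaks over all 3 libraries these shares were 81.1%, 12.9% and 11.5%, and of the untreated lists' peaks 87.1% ± 0.22, 8.27% ± 0.09 and 12.5% ± 0.82 (SD, n = 3). By length, 41.3% of the treated coverage lay outside coding genes and their flanks, against 13.2% ± 0.23 of the untreated coverage.

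Treated-only peaks recurred in the other cell population. Of the 4510, 2839 (62.9%, interval 61.5 to 64.3) overlapped a peak of the treated shNC list and 553 (12.3%) a peak of any of the 3 untreated shNC lists. The second share was limited by the choice of peaks outside the untreated shTDP43 lists, since untreated shNC peaks covered nearly the same loci, so the 2 shares cannot be read against each other. The share in treated shNC went with the strength of the peak, from 33.5% at a −log10 q under 2 to 88.1% at 6 to 10, 96.0% at 10 to 20 and 98.3% (176 of 179) at 20 or more. Peaks over all 3 untreated libraries had nearly the same course, from 34.4% to 100%. At a −log10 q of 20 or more, 21.2% of treated-only peaks met an untreated shNC peak. The 2 treated libraries carried different hairpins and had the same RNase H treatment, and whether they were handled together is not given in the labels.

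**Figure D5:**
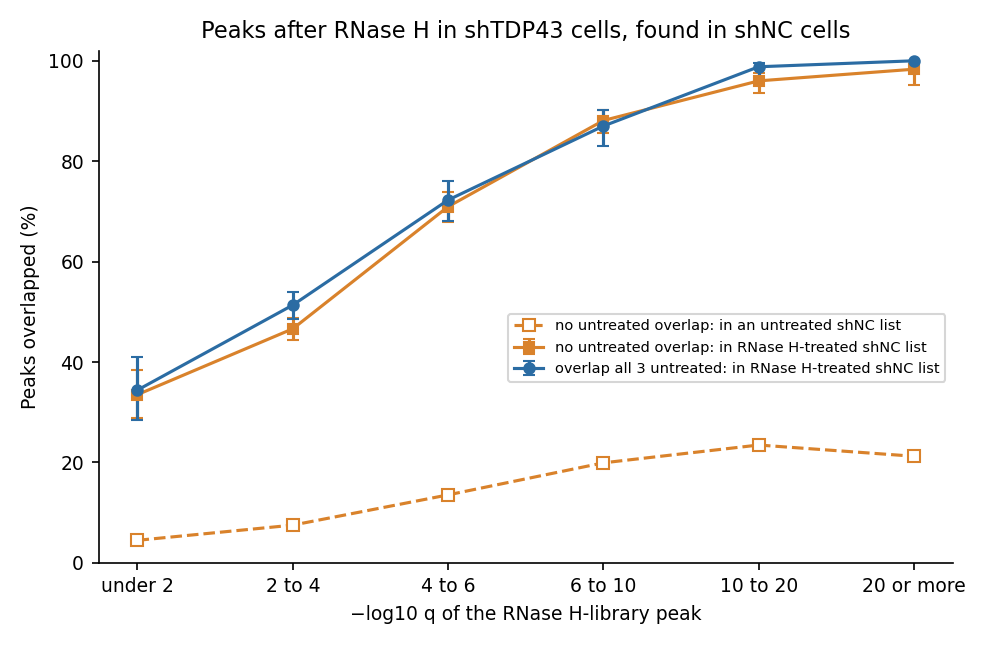
Percent of treated shTDP43 peaks (y axis) found in shNC lists, by −log10 q of the peak (x axis). Solid lines give overlap with the treated shNC list for peaks without (squares) and with (circles) overlap to all 3 untreated shTDP43 lists, with 95% Wilson intervals; both climb from about 34% to over 98%, while overlap of treated-only peaks with untreated shNC lists (dashed) stays between 4.49% and 23.5%.

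The widest treated peaks over all 3 untreated libraries lay in genes. The widest, 9.81 kb on chromosome 19 (10107765 to 10117572), touched PPAN, P2RY11 and EIF3G, which encodes a translation initiation factor subunit, where the untreated peaks were 16.9 kb wide in each replicate. The next were 9.28 kb at LSP1 and PRR33, 8.37 kb in FSCN1, 8.14 kb in IQCN and 7.68 kb in CCDC9B. All 5 lay at least 99.3% under peaks of the treated shNC list. The 5 widest treated-only peaks were 3.51 to 4.03 kb. They lay 48.1 kb from PSAP on chromosome 10, at a valine tRNA gene on chromosome 10, in ZMYM2 and in a long noncoding RNA gene on chromosome 13, and 74.3 kb from PARP8 on chromosome 5. Between 68.9% and 100% of their length lay under treated shNC peaks.

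The strongest treated peaks by fold, which were added after values were seen, were 0.664 to 2.66 kb wide. The first was 915 bp in PMF1 on chromosome 1 (156232868 to 156233782), a kinetochore gene, at 111-fold. The second covered 1.97 kb of EEF1A1 on chromosome 6 (73520031 to 73521996), the translation elongation factor gene, at 106-fold. Others lay in EVI5 and in stretches with no annotated gene, 15.4 kb from HIBADH, 32.4 kb from CMAS, 112.3 kb from FOXI3, 191.6 kb from PAX1 and 747.8 kb from CADM2. All 8 overlapped peaks of all 3 untreated shTDP43 and all 3 untreated shNC libraries. At each of the 8 the treated fold was above that of every untreated shTDP43 library, to which the ranking by treated fold contributes. It was 111 against 34.5 to 45.1 in PMF1, 106 against 76.5 to 104.8 in EEF1A1 and 71.6 against 3.88 to 7.65 near FOXI3. The cause was not tested. The strongest treated-only peak, in ANK2, an adaptor of axonal membranes, was 845 bp wide at 34.98-fold. The next 5, at 25.0- to 28.1-fold, included peaks in ALMS1, PTPRD and ERC1. All 6 lay fully under peaks of the treated shNC list.

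Chromosomes differed in the mix. On chromosome 19, 69 of 589 treated peaks (11.7%) were treated-only, and on chromosome 16 the share was 32.4%, on chromosome 22 33.3% and on chromosome 17 35.2%. On chromosome 18 the share was 73.3% (126 of 172), on chromosome 13 69.9% and on chromosome 21 67.3%. Chromosome 19 carried the longest untreated coverage, 12.5 ± 1.74 Mb (SD, n = 3), and chromosome 18 the shortest, 1.03 ± 0.26 Mb. The share of untreated regions met by a treated peak varied less, from 3.12% on chromosome 22 to 7.54% on chromosome 19. The mitochondrial genome, outside the analysis of chromosomes, lay under peaks over 15.1 to 15.2 kb untreated and 13.4 kb treated. Long noncoding RNA genes lost their peaks in a higher share of cases than coding ones. Of 3822 covered in all 3 untreated libraries 3352 (87.7%) lost all peaks, and of 12857 without untreated peaks 467 (3.63%) carried a treated one.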

How the data were processed

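DRIP-seq peak lists of SH-SY5Y cells were analysed as deposited, 1 list per library. Per the submitters' processing notes, the authors used Bowtie2 2.4.4, SAMtools and MACS2 2.2.6 with the hg38 build; no source used here names the control library of the peak calling. The authors' deposited lists give for each peak a score (10 times the −log10 q, whole part), a fold enrichment at the summit, the −log10 p and −log10 q, and the summit's offset. Covered length per gene, overlaps of at least 1 bp and Wilson intervals were computed from them with Python 3.11.15, numpy 2.4.6, pandas 2.3.3 and scipy 1.17.1. RefSeq gene spans of GRCh38 were used, and 153 coding genes on other scaffolds were left out. Background pileup was recovered from fold and p at 5000 summits per list, 99.0% to 99.92% of which gave a whole pileup within 0.001. The value given for each list is the lowest of these. The gene classes were checked on simulated data, where 200 of 200 genes were recovered. In untreated replicate 1 only, 500 random windows counted base by base differed in 0 cases. No test was run, since the treated group has 1 library. Genes were named by rank: the 10 largest by untreated mean among genes without a treated peak, the 10 largest by treated length and the 10 largest by percent kept (untreated mean of at least 5 kb) among genes with a treated peak over an untreated one, and the 10 largest by treated length among genes without untreated peaks, with 1 gene per shared peak set. In each of the 15 lists the named genes were the member with the largest untreated mean that lost all peaks and the 2 with the longest treated length, and every DRIP control locus. Some genes that this rule names are not reported here. The 5 widest treated peaks with and without untreated overlap were named too. The members and lists were chosen with earlier results of these data known. Alternatives were the strength of peaks, flank, covered length, overlap, libraries left out and untreated lists cut to the treated list's length.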

Additional observations from a re-analysis of the deposited data

Results flagged for a closer look

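Outside chromosomes 1 to 22 and X, 25 sequences held a treated peak, and apart from the mitochondrial genome no comparison above uses them. Of these, 12 carried more covered length after RNase H than in any of the 6 untreated libraries of both hairpins, 5 of them with at least 1 kb. The unplaced contig Un_KI270438v1 had 6.141 kb treated against at most 4.406 kb untreated, and Un_KI270744v1 1.591 against 1.213 kb. The chromosome 17 contig KI270729v1 had 2.601 against 2.073 kb, the chromosome 22 contig KI270736v1 2.123 against 0.38 kb, and the chromosome 14 contig KI270725v1 1.248 against 0.633 kb. In the treated shNC library the same 5 contigs carried 6.323, 1.804, 4.247, 5.492 and 1.634 kb. Each value is of 1 treated library, and none was tested.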

How the results depend on the processing

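Of 68 values under other settings, 35 stayed near the reported value, 31 moved and 2 reversed. With peaks of −log10 q of at least 5 in every list, 1061 genes kept a peak, 41.2% of treated peaks overlapped an untreated one, 3.27% of regions met a treated peak, the median percent kept was 12.8%, the width ratio was 0.935 and 43.6% of treated length lay outside coding genes. At 10 these were 373 genes, 33.5%, 2.29%, 18.7%, 0.422 and 46.2%, and 220 genes had a treated peak only. The cause was not tested. Without flanks 44.1% lay outside coding genes, and with 5 kb flanks 36.5%, with a median of 6.74% kept; both follow from the window's size. Replicate 1 had the smallest of the lowest background pileups among the untreated libraries. Against it alone, 629 genes had a treated peak only, and 36.6% of treated peaks and 4.03% of regions overlapped. The median kept was 11.3% and the width ratio 3.52. With untreated lists limited to the treated list's length, 5032 genes lost all peaks, 1856 kept one and 1351 had a treated peak only, 26.8% of treated peaks and 14.6% of regions overlapped. Requiring an overlap of 0.5 of the treated peak's length gave 45.6% and 4.84%, and regions of all 3 libraries 6.72%. Leaving out each untreated library in turn gave 43.3% to 48.2% of treated peaks, 5.33% to 6.09% of regions, 9322 to 9883 genes that lost all peaks, 2833 to 2946 that kept one, 392 to 459 with a treated peak only, medians of 8.31% to 9.09% kept and width ratios of 2.38 to 2.58. No paired analysis was possible because the treated group has 1 library. Peak lists cut at a threshold, so a gene without a treated peak may still hold signal under it. The treated library's lowest background pileup, 0.991, was close to the 1.05 of untreated replicate 1, and below those of replicates 2 and 3.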
